A study of Mus musculus and Homo sapiens with 10 samples.

Results

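Broad H3K4me3 domains were the peaks of the NIH3T3 H3K4me3 list that spanned 5000 bp or more from start to end; they were chosen by this measured width alone. There were 851 of them among the 27982 peaks of that list (3.04%), and 156956 peaks in the 7 NIH3T3 lists together. NIH3T3 is an immortalized mouse fibroblast line, for which the labels name no treatment; cells in exponential growth were harvested for chromatin immunoprecipitation followed by sequencing (ChIP-seq). Besides H3K4me3, antibodies were used against both forms of the upstream binding factor (UBF1/2, UBF here), the largest subunit of RNA polymerase I (Pol I), the phosphorylated C-terminal repeat of RNA polymerase II (Pol II), acetylated lysine 9 of histone H3 (H3K9ac), hyperacetylated histone H4 and trimethylated lysine 9 of histone H3 (H3K9me3). Each antibody is represented by 1 list of called peaks (n = 1), so there was no replicate error and no test between samples was possible. The design names 2 biological replicates for UBF, and no source used here says if its list pools them. Positions are on the mouse build mm9, per the submitters' processing notes, and whether they count from 0 or 1 is not given there. No mm9 annotation was used here, so regions are named by position and fibroblast markers were not checked. Domains were compared with the 6438 H3K4me3 peaks of 2500 bp to under 5000 bp, called mid-width peaks here.

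Trimethylation of lysine 4 on histone H3 marks the promoters of active genes, usually as a narrow peak over the transcription start site. In many cell types a minority of promoters carries the mark over a much longer stretch that reaches into the gene, and such domains are known for genes of cell identity and for highly transcribed genes. H3K9ac and H4 hyperacetylation are marks of open, transcribed chromatin, whereas H3K9me3 is known for heterochromatin and silenced repeats. UBF and Pol I are known for the transcription of ribosomal RNA genes in the nucleolus, and UBF has also been mapped to Pol II promoters.

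The width of the H3K4me3 peak chose the domains and is given as a description. The domains had a median width of 6050 bp (quartiles 5417 and 7185), 10% were wider than 8749 bp, and the widest spanned 41813 bp. They covered 5.74 Mb, or 10.2% of the length of the whole H3K4me3 list. The mid-width peaks had a median of 3125.5 bp and covered 21.2 Mb. At the limit, the 3 narrowest domains measured 5000, 5002 and 5005 bp, on chromosomes 10, 7 and 11. The 3 widest peaks outside it measured 4997, 4995 and 4995 bp, on chromosomes 15, 11 and 8. All 6 carried Pol II and both acetylation lists, as did 99.3% of domains, 93.6% of mid-width peaks and 50.7% of all H3K4me3 peaks. None carried UBF or Pol I. UBF or Pol I was present at 33.5% of domains, 21.5% of mid-width peaks and 9.07% of all H3K4me3 peaks. H3K9me3 met peaks on either side. With 3 peaks per side, no comparison of the sides was made.

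Every domain carried both acetylation marks. An H3K9ac peak overlapped all 851 domains by at least 1 bp (100%, exact 95% binomial interval 99.6 to 100), against 84.9% of all H3K4me3 peaks and 99.8% of mid-width peaks. H4 hyperacetylation also met all 851, against 87.2% of all H3K4me3 peaks and 99.8% of mid-width peaks. Both marks were therefore near their ceiling in either width group. The differences were 0.155 percentage points (95% Newcombe interval -0.300 to 0.286) for H3K9ac and 0.233 points (-0.226 to 0.384) for H4 hyperacetylation. These intervals include 0. With only the wider 50% of each acetylation list the differences were 2.68 points (2.02 to 3.12) for H3K9ac and 3.37 points (2.62 to 3.88) for H4 hyperacetylation, and with 50% of the H4 hyperacetylation peak required inside it was 1.35 points (0.426 to 1.92), intervals above 0. All intervals here are over peaks, which are not independent replicates, and cover counting error only. The depth behind the lists is unknown.

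Acetylation covered a larger share of the length of domains than of mid-width peaks, but not more of their centre points. At the centre point H3K9ac covered 98.94% of domains and 98.96% of mid-width peaks, and H4 hyperacetylation 92.1% and 96.2%. Over the central 2500 bp, which reach to or near the edges of mid-width peaks only, H3K9ac covered 98.8% and 95.6%. H4 hyperacetylation covered 91.7% and 86.5% there. The median domain was covered by H3K9ac over 98.5% of its length (quartiles 94.5 and 100), and the median mid-width peak over 94.7% (87.9 and 98.9). H3K9ac covered at least 90% of the length of 737 domains (86.6%, 84.1 to 88.8), where 51.7% of all H3K4me3 peaks and 69.2% of mid-width peaks were covered to that extent. H4 hyperacetylation covered a median of 93.0% of the domain length (quartiles 78.9 and 98.5) against 83.3% (68.7 and 95.3). At least 90% was reached by 491 domains (57.7%, 54.3 to 61.04), against 40.2% of all H3K4me3 peaks and 36.5% of mid-width peaks.

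Within the domains H3K9ac was less often divided into several peaks than H4 hyperacetylation. Per H3K4me3 peak both were divided more often than in mid-width peaks, but per length their peaks were fewer. Per 10 kb there were 1.98 H3K9ac peaks in domains and 3.41 in mid-width peaks. For H4 hyperacetylation there were 2.62 and 3.75. A single H3K9ac peak was found at 637 domains (74.9%) and at 87.7% of mid-width peaks. For H4 hyperacetylation this was 410 domains (48.2%) and 78.3% of mid-width peaks. An H3K9ac peak that was itself 5000 bp or wider met 648 domains (76.1%, 73.1 to 79.0), against 3.95% of all H3K4me3 peaks and 4.66% of mid-width peaks. An H4 hyperacetylation peak of that width met 406 domains (47.7%, 44.3 to 51.1), against 3.54% of all H3K4me3 peaks and 5.22% of mid-width peaks. Seen from the other lists, 71.4% of the 905 H3K9ac peaks and 53.4% of the 766 H4 hyperacetylation peaks of 5000 bp or more lay on a broad H3K4me3 domain. For Pol II this was 68 of 100, and for H3K9me3 10 of 85. Pol II peaks of that width met 68 domains (7.99%), against 0.34% of all H3K4me3 peaks and 0.249% of mid-width peaks. Because the domains were themselves chosen at 5000 bp or more, these contrasts partly restate that rule and are given as a description.

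**Figure D1:**
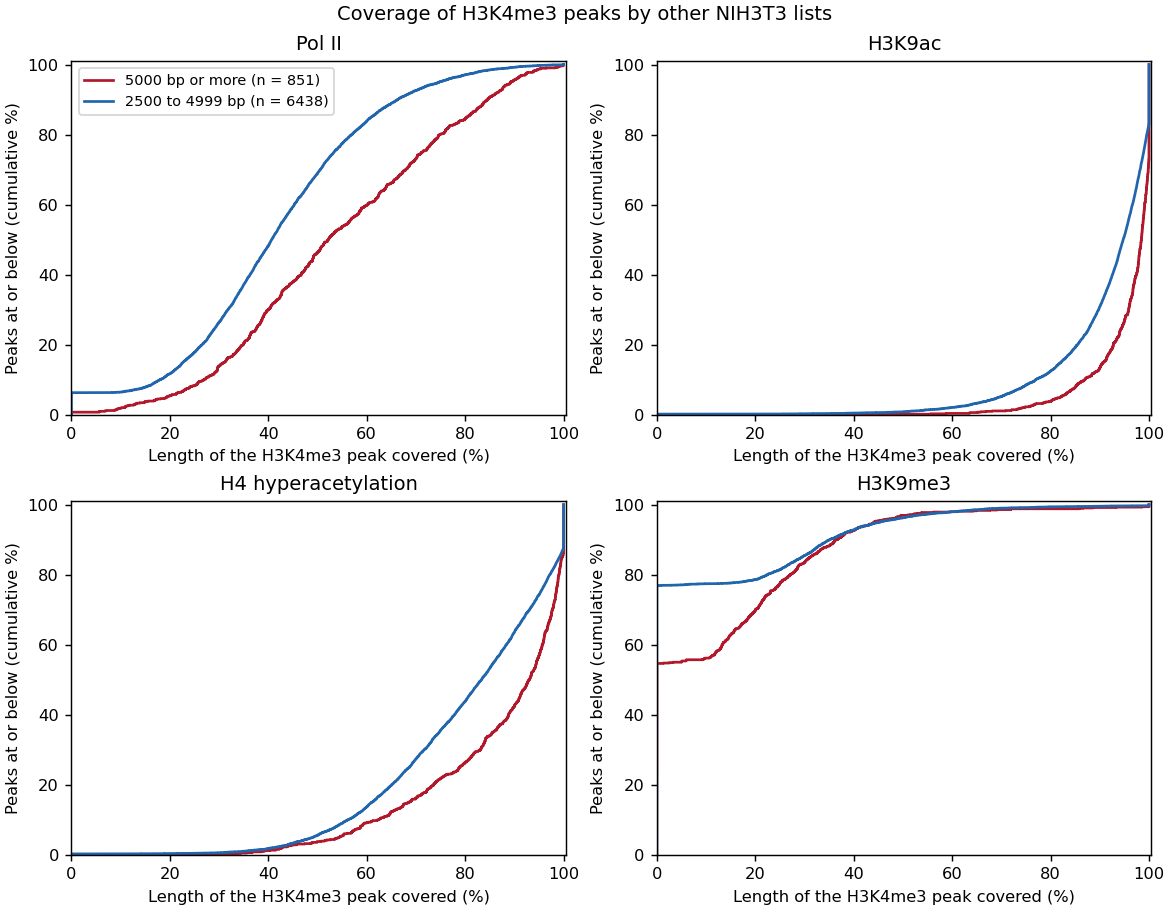
Cumulative share of H3K4me3 peaks (y axis, %) by the length of the peak that another list covers (x axis, %), for Pol II, H3K9ac, H4 hyperacetylation and H3K9me3. Red, 851 domains of 5000 bp or more; blue, 6438 mid-width peaks. The red curves for Pol II and both acetylation lists lie to the right, with medians of 52.2%, 98.5% and 93.0% against 40.7%, 94.7% and 83.3%; for H3K9me3 the curves start apart, at the 54.5% of domains without the mark, and lie close above 50% of the length.

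Pol II occupied nearly all domains and more of their length. A Pol II peak was present at 845 domains (99.3%, 98.5 to 99.7), against 53.2% of all H3K4me3 peaks and 93.7% (93.1 to 94.3) of mid-width peaks, a difference of 5.57 points (4.57 to 6.30). Against peaks of 4000 bp to under 5000 bp it was 1.76 points (0.628 to 2.95), and with only the wider 50% of the Pol II list it was 11.6 points (9.82 to 13.1). Its peaks covered a median of 52.2% of the domain length (quartiles 37.7 and 71.2) and 40.7% of the mid-width length (29.3 and 53.4). A wider peak has more room to meet another list, so the central 2500 bp of every peak were also searched, a window of equal size in both groups. There Pol II covered 65.7% of the central sequence of domains and 49.9% of that of mid-width peaks. This window reaches to or near the edges of mid-width peaks but not those of domains. At the centre point itself the order was the other way, with Pol II at 65.2% of domain centres and 71.0% of mid-width centres, and 1000 bp inside the edge it covered 53.7% and 56.7% of positions.

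Pol II was spread over several called peaks in most domains. At least 2 Pol II peaks were found in 688 domains (80.8%, 78.0 to 83.4; 9.47% of all H3K4me3 peaks) and in 24.4% of mid-width peaks. The domains held a mean of 2.53 Pol II peaks and the mid-width peaks 1.23, but per length the numbers were alike, at 3.76 and 3.72 peaks per 10 kb. Single Pol II peaks were of similar width, with medians of 1092.5 bp in domains and 1033 bp in mid-width peaks. The longest Pol II stretch in a domain had a median of 1954 bp, against 1146 bp in a mid-width peak, a measure that also rises with the number of peaks. Coverage rose with width on both sides of the limit. The median Pol II coverage went from 39.2% at 2500 to 2999 bp to 46.3% at 4500 bp to under 5000 bp. It was 46.0% at 5000 to 5499 bp, so no step lay at the limit, and 72.4% in the 45 domains of 10000 bp or more. The share of peaks with Pol II also rose below the limit, from 90.3% to 97.8% in the same groups. Pol II covered at least 90% of 37 domains (4.35%; 0.893% of all H3K4me3 peaks).

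Only 6 domains lacked a Pol II peak. The 5 widest of them lay on chromosome 8 from 86551933 to 86558564, chromosome 2 from 179947420 to 179953805, chromosome 6 from 29194240 to 29200083, chromosome 9 from 78037888 to 78043665, and an unplaced contig. The remaining one lay on chromosome 11 from 94959242 to 94964841. All 6 carried H3K9ac and H4 hyperacetylation, none carried UBF or Pol I, and 2 carried H3K9me3. H3K9ac covered 96.96% to 99.9% of the length of the 5 widest, without a called Pol II peak. H4 hyperacetylation covered 72.1% of the one on chromosome 9 and at least 97.5% of each of the others of these 5.

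UBF was found at 222 domains (26.1%, 23.2 to 29.2), against 6.41% of all H3K4me3 peaks and 16.2% (15.3 to 17.1) of mid-width peaks. The difference was 9.89 points (6.90 to 13.1). In the central 2500 bp it was 6.89 points (4.04 to 9.97), with 23.0% of domains, 16.1% of mid-width peaks and 16.9% of all H3K4me3 peaks of 2500 bp or more. Against peaks of 4000 bp to under 5000 bp the difference over the whole peak was 4.64 points (0.810 to 8.51). The share thus rose with width through the mid-width range, from 13.1% at 2500 to 2999 bp to 23.3% at 4500 bp to under 5000 bp. Within the domains it stood at 23.8% at 5000 to 5499 bp, 31.2% at 7000 to 7999 bp, 29.3% at 8000 to 9999 bp and 24.4% at 10000 bp or more, with overlapping intervals, and no step lay at the limit of 5000 bp. In the central window it was 20.7% and 11.1% in these last groups.

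UBF peaks were wider in domains but not more frequent per length. They had a median width of 1488.5 bp in domains (quartiles 1102 and 1950.0), against 1183 bp in mid-width peaks (991 and 1488) and in the whole UBF list 981 bp. Per 10 kb of H3K4me3 there were 0.422 UBF peaks in domains (exact Poisson interval 0.370 to 0.479) and 0.498 in mid-width peaks (0.469 to 0.529). In the central 2500 bp UBF covered 11.4% of the sequence in domains and 7.96% in mid-width peaks, but at the centre point it covered 12.8% of domains and 12.9% of mid-width peaks. Both UBF peaks that were themselves 5000 bp or wider lay on a domain. Most domains with UBF had a single UBF peak (203), 18 had 2 and 1 had 3, so that 2 or more occurred at 2.23% of domains and 0.132% of all H3K4me3 peaks.

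Pol I was found at 92 domains (10.8%, 8.80 to 13.1), against 3.26% of all H3K4me3 peaks and 6.74% (6.14 to 7.38) of mid-width peaks. The difference of 4.07 points (2.05 to 6.41) was not present in windows of equal size. In the central 2500 bp Pol I met 46 domains (5.41%, 3.98 to 7.14), 6.40% of mid-width peaks and 6.28% of all H3K4me3 peaks of 2500 bp or more, a difference of -0.994 points (-2.46 to 0.828) that includes 0. The number of Pol I peaks per 10 kb was 0.200 in domains (0.166 to 0.241) and 0.217 in mid-width peaks (0.197 to 0.238). Pol I peaks were narrow in both, with medians of 276 and 274.5 bp. Pol I was thus met by more domains over their whole length, at a similar number of peaks per length.

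**Figure D2:**
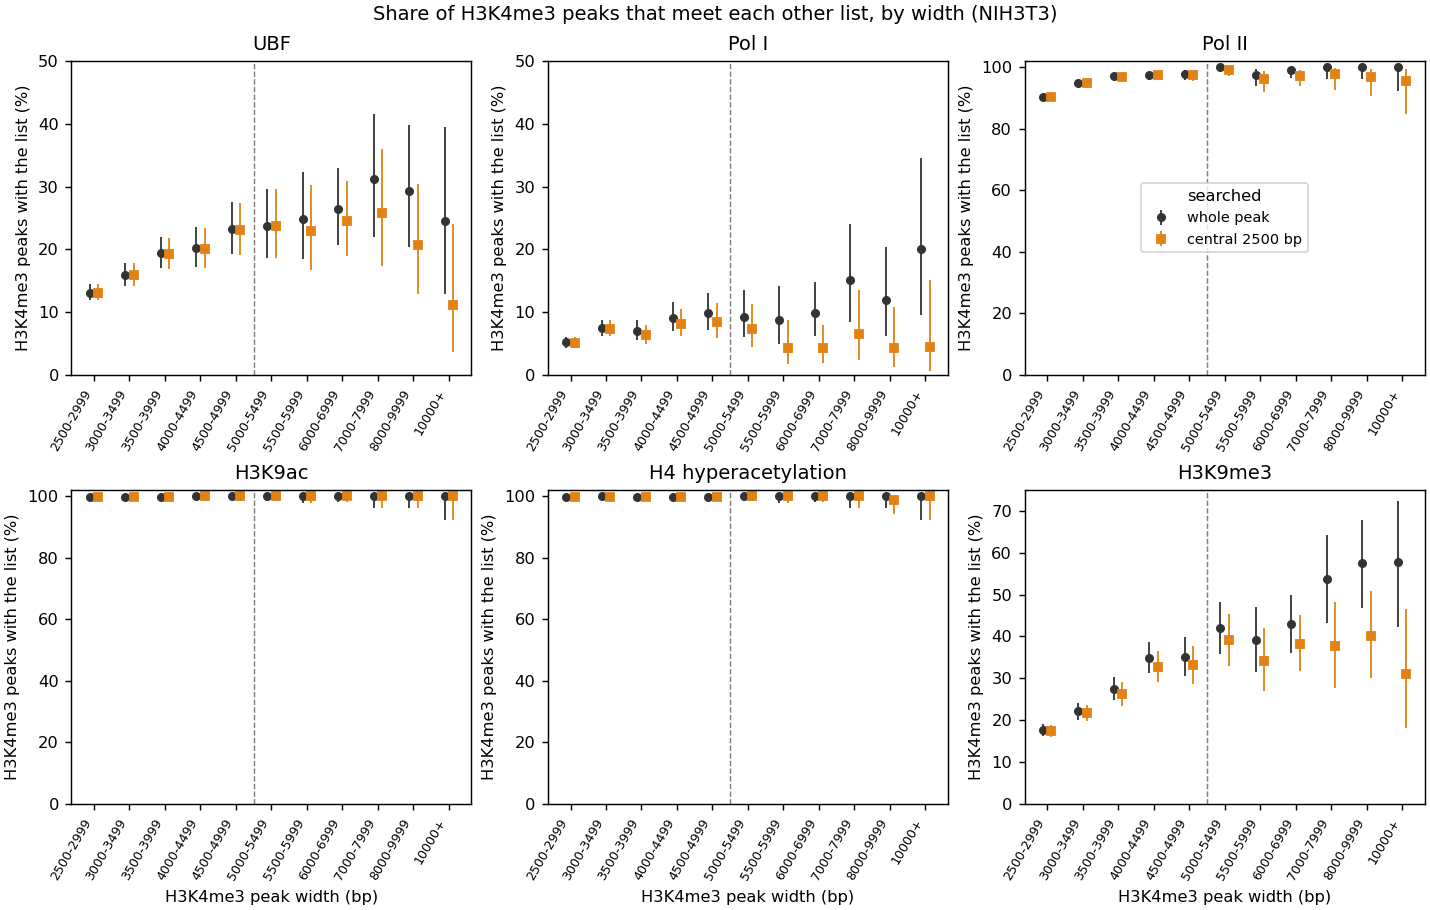
Share of H3K4me3 peaks that meet each other list (y axis, %) in 11 groups of H3K4me3 width (x axis, bp), over the whole peak (black circles) and over its central 2500 bp (orange squares), with exact 95% binomial intervals; the dashed line marks 5000 bp. UBF rises from 13.1% to 23.3% below the line and H3K9me3 from 17.6% to 35.0%, while Pol I in the central window stays between 4.25% and 8.39% in all groups.

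H3K9me3, the mark of silent chromatin, had the largest difference in percentage points of the 6 lists over the whole peak. It was present at 387 domains (45.5%, 42.1 to 48.9), against 13.9% of all H3K4me3 peaks and 23.1% (22.1 to 24.2) of mid-width peaks, a difference of 22.3 points (18.9 to 25.8). In the central 2500 bp the shares were 37.5% of domains, 22.4% of mid-width peaks and 24.2% of all H3K4me3 peaks of 2500 bp or more, and the difference was 15.1 points (11.7 to 18.5). Against peaks of 4000 bp to under 5000 bp it was 10.6 points over the whole peak (6.14 to 14.9). As with UBF, the share rose below the limit, from 17.6% at 2500 to 2999 bp to 35.0% at 4500 bp to under 5000 bp. It went on to 41.9% at 5000 to 5499 bp and 57.8% in the domains of 10000 bp or more. In the central window it was 39.1% at 5000 to 5499 bp and 31.1% at 10000 bp or more. Per 10 kb there were 0.804 H3K9me3 peaks in domains (0.732 to 0.881) and 0.736 in mid-width peaks (0.700 to 0.774), with overlapping intervals.

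H3K9me3 covered only part of the domains. Where present it covered a median of 1539 bp, or 24.9% of the domain, against 1106 bp and 33.2% in mid-width peaks. At least 50% of the length was covered at 26 domains (3.06%), against 5.9% of all H3K4me3 peaks and 3.76% of mid-width peaks. The H3K9me3 peaks in domains had a median width of 1438 bp and 84.2% of them lay wholly inside the domain. Domains with H3K9me3 had more Pol II than those without, with medians of 62.5% and 46.6% of the length covered, and were slightly wider, at 6226 and 5938 bp. The same order was seen in mid-width peaks, with Pol II medians of 47.5% and 38.6% and widths of 3333 and 3078 bp. H3K9ac coverage was alike in domains with and without H3K9me3, at 98.4% and 98.5%. So was that of H4 hyperacetylation, at 92.7% and 93.4%.

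H3K9me3 was commoner where UBF or Pol I was present. Of the 222 domains with UBF, 119 carried H3K9me3 (53.6%, 46.8 to 60.3), against 42.6% (38.7 to 46.6) of the 629 without, a difference of 10.996 points (3.36 to 18.5). Of the 92 domains with Pol I, 61 carried it (66.3%, 55.7 to 75.8), against 42.95% (39.4 to 46.6) of the 759 without, a difference of 23.4 points (12.6 to 32.8). Domains with UBF and H3K9me3 were 13.98% of all domains (2.01% of all H3K4me3 peaks), and those with Pol I and H3K9me3 7.17% (0.958% of all H3K4me3 peaks). In mid-width peaks the differences were 12.998 points for UBF (9.98 to 16.1) and 9.77 points for Pol I (5.41 to 14.4). The gap between the Pol I differences of the width groups was not tested.

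The shares differed in the same direction within narrower ranges of domain width, untested. At 5000 to 5999 bp, H3K9me3 was present at 25 of 37 domains with Pol I (67.6%) and 38.2% of those without. At 6000 to 7999 bp it was present at 22 of 35 (62.9%) and 44.1%, and at 8000 bp or more at 14 of 20 (70.0%) and 55.6%. For UBF the shares were 48.5% and 38.4%, 54.1% and 43.2%, and 65.8% and 54.5% in these ranges. Pol II moved with them: its median coverage was 58.1% in domains with UBF and 50.6% in those without, and 59.5% and 51.3% for Pol I. In mid-width peaks it was 48.0% and 39.2% for UBF, and 44.5% and 40.4% for Pol I. The part of Pol II coverage in the H3K9me3 difference was not tested.

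**Figure D3:**
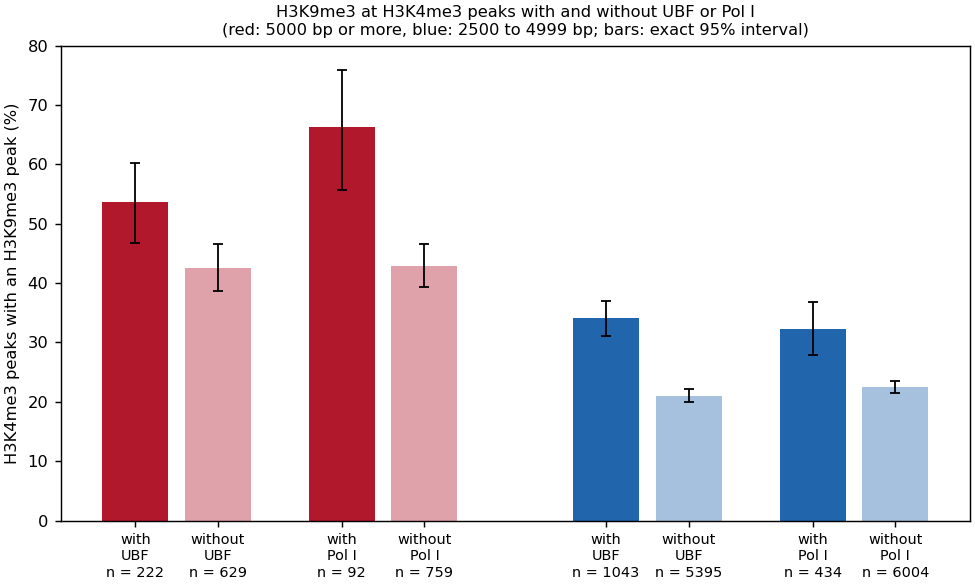
Share of H3K4me3 peaks with an H3K9me3 peak (y axis, %) in peaks with and without UBF or Pol I (x axis), for domains of 5000 bp or more (red) and mid-width peaks (blue); error bars are exact 95% binomial intervals. H3K9me3 is highest in the 92 domains with Pol I, at 66.3%, against 42.95% in the 759 domains without Pol I.

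Sharing a domain did not always mean sharing a site. In the 119 domains with UBF and H3K9me3, a UBF peak touched an H3K9me3 peak in 100 (84.0%). In the 61 with Pol I and H3K9me3 the peaks touched in 35 (57.4%). Either UBF or Pol I was present at 285 domains (33.5%, 30.3 to 36.8; 9.07% of all H3K4me3 peaks). UBF and Pol I met in 29 domains (3.41%, 2.29 to 4.86; 0.608% of all H3K4me3 peaks), and in 21 of these their peaks overlapped. Pol I was present at 13.1% of domains with UBF and 10.02% of those without, a difference of 3.05 points (-1.56 to 8.54) that includes 0.

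All 845 domains with Pol II also carried both acetylation lists (99.3%; 50.7% of all H3K4me3 peaks). By combination of the 6 other lists, 330 domains (38.8%, 35.5 to 42.1) carried Pol II and both acetylation lists alone. A further 230 (27.0%) added H3K9me3, 99 (11.6%) added UBF and 94 (11.05%) added UBF and H3K9me3. Pol I without UBF was found at 36 domains with H3K9me3 and 27 without it, all of them with Pol II and acetylation. All 6 other lists met 25 domains (2.94%, 1.91 to 4.31; 0.286% of all H3K4me3 peaks), against 0.575% of mid-width peaks. Of the 29 domains with UBF and Pol I, 4 lacked H3K9me3. Among mid-width peaks the set with Pol II and acetylation alone was larger, at 56.9% (55.7 to 58.1).

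The centres of the factors' peaks were spread differently along the domain. Of the 241 UBF peaks with their centre in a domain, 39.4% were in the middle part when its length was cut into 5 equal parts, 52.3% in the parts next to it and 8.30% in the outermost parts. Of the 115 Pol I peaks, 22.6% were in the middle part and 20.9% in the outermost parts at both ends together. Peak width was not allowed for, with medians of 1488.5 bp for UBF and 276 bp for Pol I. A wider peak that lies inside a domain cannot have its centre as near the edge. The outermost parts held 19.9% of H3K9me3 centres and 31.5% of Pol II centres. In mid-width peaks the middle part held more of each, at 54.3% for UBF, 39.0% for Pol I, 43.8% for H3K9me3 and 39.4% for Pol II. In bp, UBF centres lay a median of 2238 bp from the nearer domain edge and Pol I centres 1878.5 bp.

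Beyond their edges the domains had more Pol II and acetylation around them. At 1000 bp outside the edge, a Pol II peak covered 14.5% of domain edges and 4.60% of mid-width edges. At the same distance H3K9ac covered 21.1% and 9.75%, H4 hyperacetylation 24.0% and 11.8%, and H3K9me3 3.47% and 2.37%. The edge itself lay within H3K9ac at 54.8% of domain edges and 39.8% of mid-width edges. UBF fell off inside the edge: it covered 0.176% of domain edges, 4.35% of the positions 1000 bp inside and 12.8% of the domain centres. Another H3K4me3 peak lay within 1000 bp of 207 domains (24.3%) and of 17.1% of mid-width peaks.

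**Figure D4:**
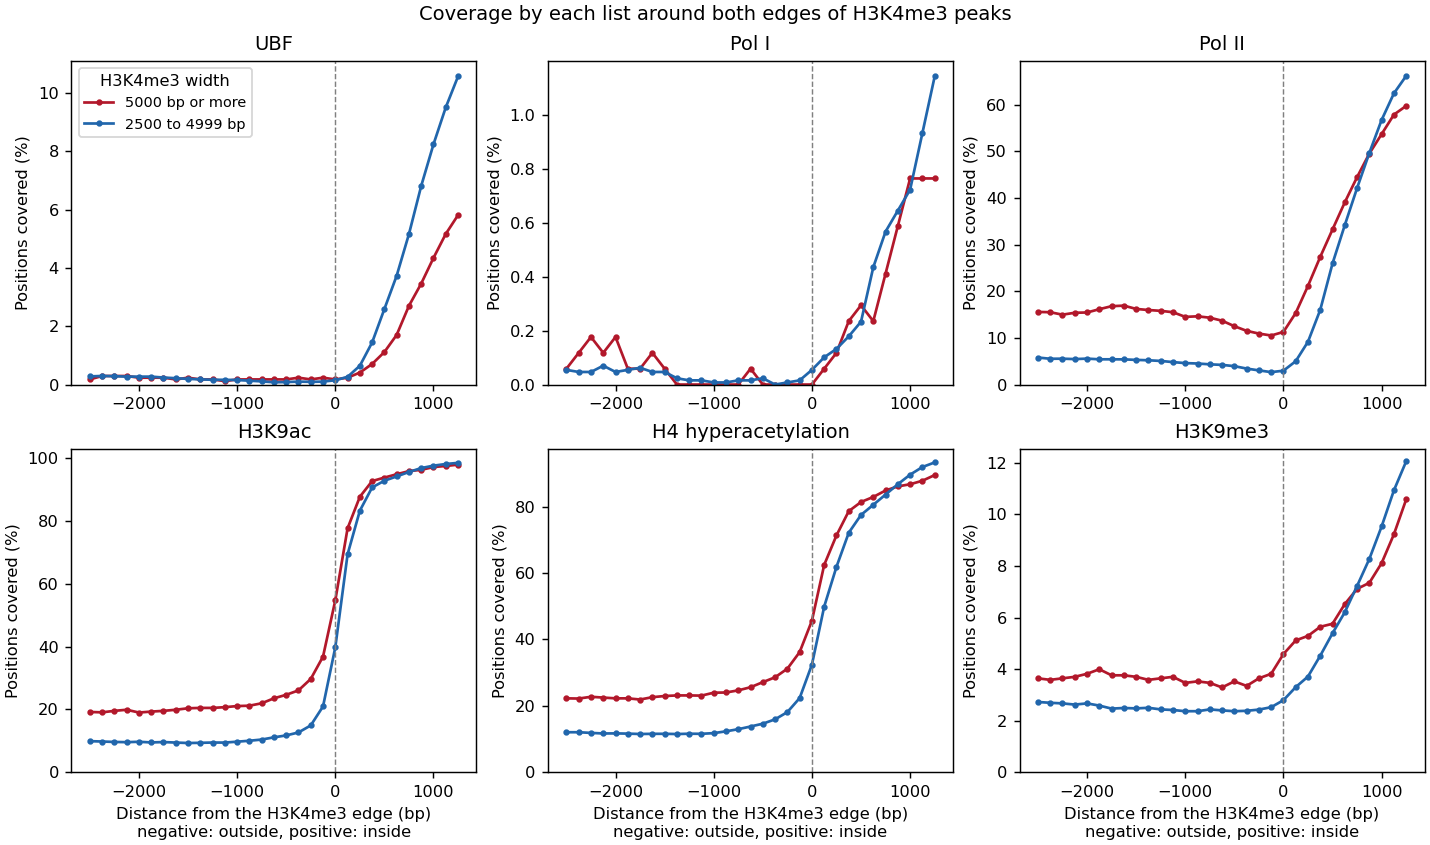
Share of positions covered by each list (y axis, %) by distance from both edges of the H3K4me3 peak (x axis, bp; negative outside, positive inside), for domains of 5000 bp or more (red) and mid-width peaks (blue). Outside the edge the red curves of Pol II and both acetylation lists lie above the blue, for Pol II 14.5% against 4.60% at 1000 bp; inside, UBF at 1000 bp covers 4.35% of positions in domains and 8.25% in mid-width peaks.

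The widest domains were unlike one another. The widest lay on chromosome 8 of mm9 from 126078023 to 126119836 (41813 bp) and held 19 H3K9ac peaks, 25 H4 hyperacetylation peaks and 7 Pol II peaks. Pol II covered 9.004% of its length and H3K9ac 88.0%. The seventh and eighth widest, from 126131532 to 126148853 (17321 bp) and from 126062060 to 126078013 (15953 bp), lay on either side of it. Together with 1 more domain and 2 narrower peaks they formed a run, singled out after its values were seen, of 6 H3K4me3 peaks over 87915 bp with gaps of 10 to 109 bp. Over that run H3K9ac covered 91.1% of the H3K4me3 length, H4 hyperacetylation 57.3% and Pol II 9.32%, far below the Pol II median of all domains, and 1 UBF peak and no Pol I peak lay in it.

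The next widest domain, on chromosome 9 from 2999852 to 3038780 (38928 bp), was covered from end to end by 4 other lists. A single Pol II peak covered 99.4% of it, a single H3K9ac and a single H4 hyperacetylation peak 99.96% and 99.9%, and a single H3K9me3 peak all of it. This domain carried no UBF and no Pol I. Its repeat content and how uniquely reads map there were not examined, so the meeting of active marks and H3K9me3 is given as called. The third, on chromosome 11 from 3021767 to 3048924 (27157 bp), had 1 Pol I peak of 243 bp and H3K9me3 over the 4740 bp at its start. The fourth, on chromosome 19 from 5792986 to 5819215 (26229 bp), had 8 Pol II peaks over 80.5% of its length and no UBF, Pol I or H3K9me3. The fifth, on chromosome 15 from 76017877 to 76039450 (21573 bp), was covered by Pol II to 98.3% and held 2 Pol I peaks of 268 and 269 bp. The sixth, on chromosome 6 from 31023211 to 31041989 (18778 bp), was covered by Pol II to 95.3% without UBF, Pol I or H3K9me3.

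UBF covered long parts of a few domains. The ninth widest, on chromosome 5 from 143571914 to 143587255 (15341 bp), carried UBF peaks of 6313 and 2001 bp that together covered 54.2% of it. Its 3 H3K9me3 peaks, of 2645, 1288 and 1481 bp, each lay inside one of these UBF peaks. The tenth, on chromosome 18 from 75525757 to 75540633 (14876 bp), had UBF peaks of 1971 and 1858 bp within the first 4080 bp of its length, 12 Pol II peaks and no H3K9me3. The domain with most UBF peaks lay on chromosome 2 from 71376304 to 71385419 (9115 bp), where 3 of them, of 984, 783 and 2906 bp, covered 51.3%. Of the 18 domains with 2 UBF peaks, the next widest after those on chromosomes 5 and 18 lay on chromosome 5 from 139464234 to 139472905 and on chromosome 8 from 35868659 to 35876243, with UBF over 31.8% and 45.9% of their length. All of these had H3K9ac over at least 99.6% of the domain.

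**Figure D5:**
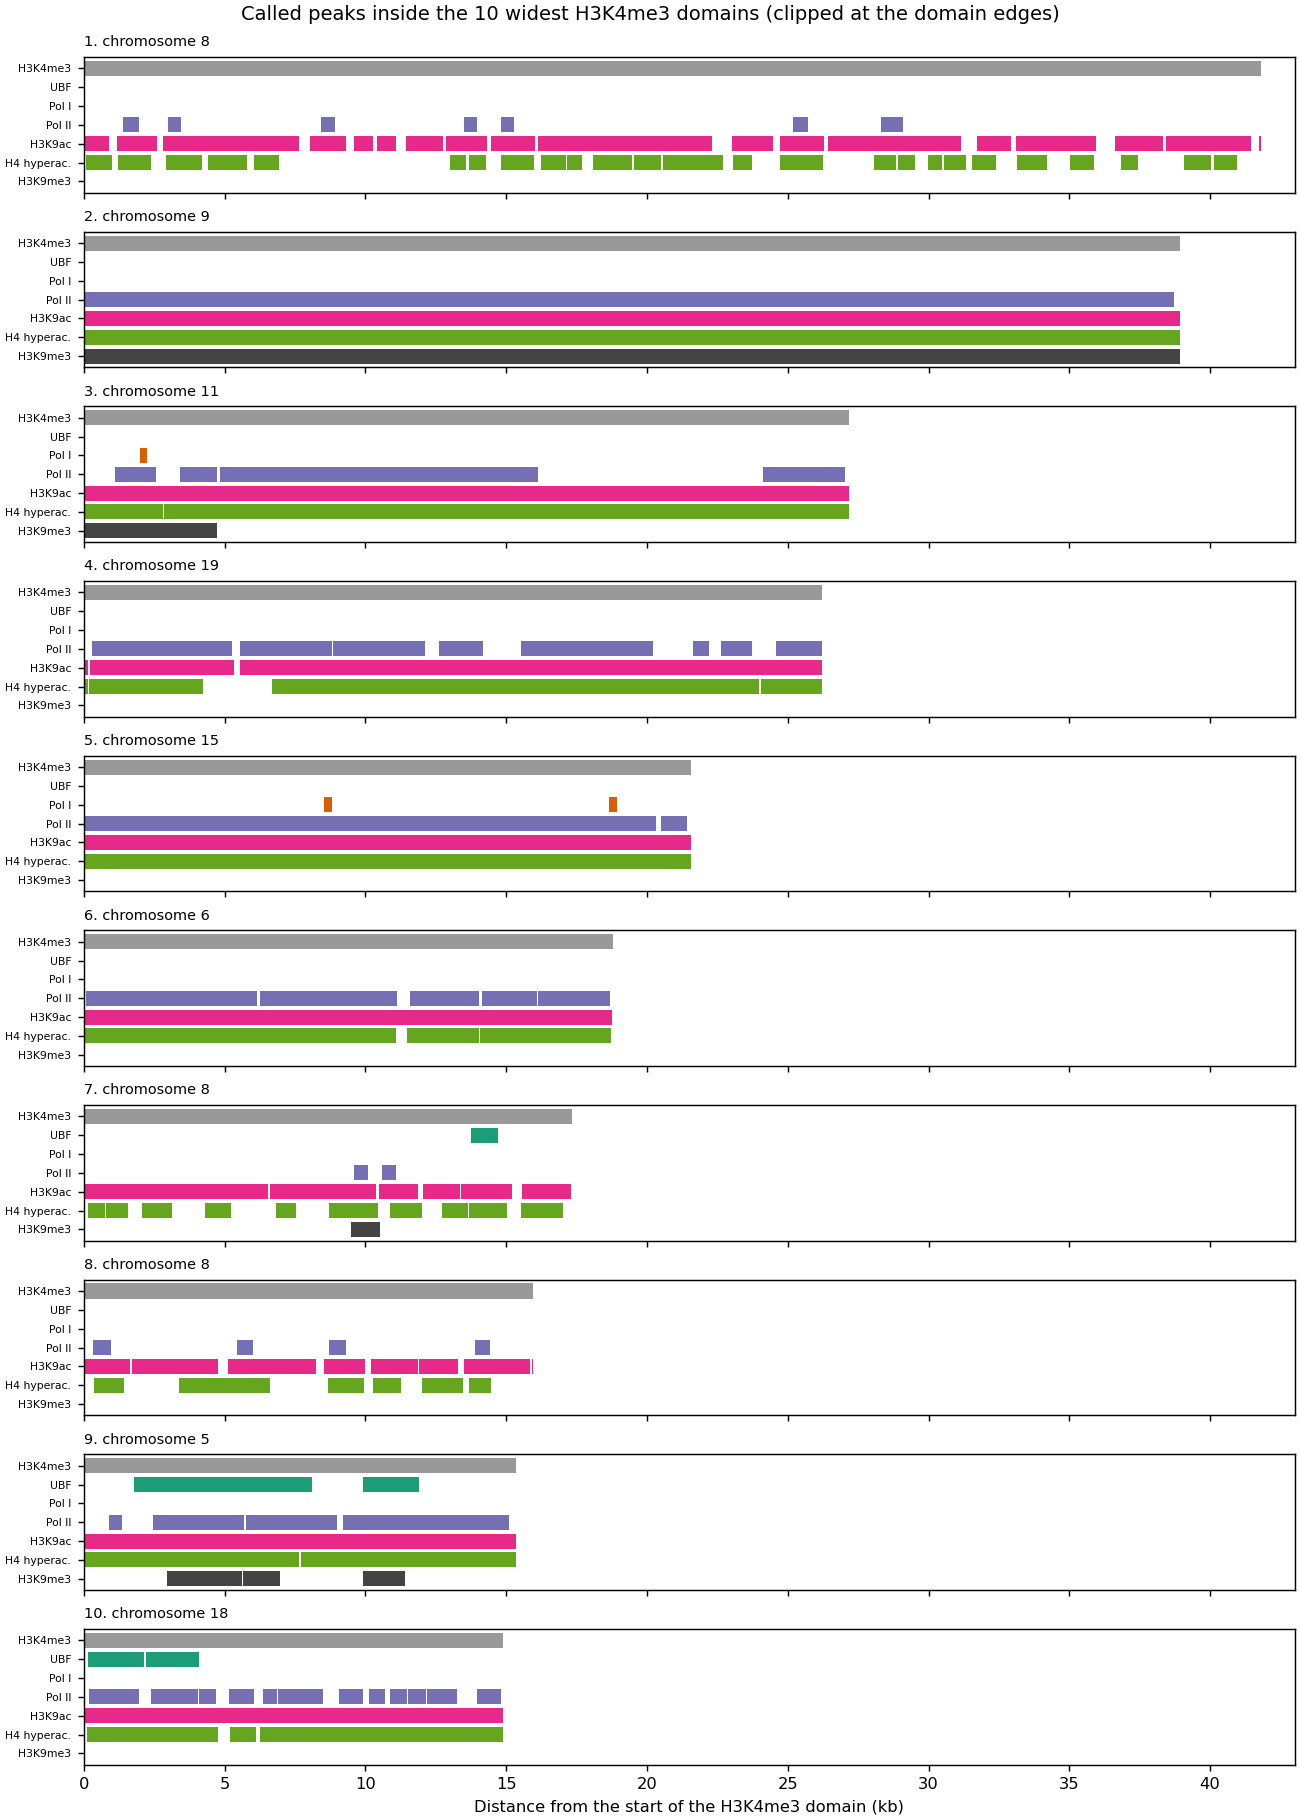
Called peaks inside each of the 10 widest H3K4me3 domains, 1 panel per domain and 1 row per list; the x axis is the distance from the start of the domain (kb), and peaks are clipped at the domain edges. The chromosome 8 domains (panels 1, 7 and 8) show many short acetylation peaks and little Pol II, the chromosome 9 domain (panel 2) is covered from end to end by Pol II, both acetylation lists and H3K9me3, and UBF is seen in panels 7, 9 and 10.

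Among the remaining widest domains with Pol I, 2 Pol I peaks covered 494 bp on chromosome 11 from 3804417 to 3816563 (12146 bp). A single one covered 330 bp on chromosome 7 from 26564910 to 26577013 (12103 bp) and 272 bp on chromosome 14 from 70564763 to 70576680 (11917 bp). None of these 3 carried UBF, and only the first carried H3K9me3. The next widest domains with H3K9me3 lay on chromosome 10 from 80390757 to 80404610 (13853 bp), where it covered 13.1%, and on chromosome 9 from 102616156 to 102629837 (13681 bp), where 2 H3K9me3 peaks covered 15.9% and the first overlapped a UBF peak of 1441 bp.

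The widest domains in all 7 lists lay on chromosome 11, from 120205932 to 120217666 (11734 bp) and from 100821877 to 100833474 (11597 bp). In the former a UBF peak of 1127 bp enclosed a Pol I peak of 181 bp, and an H3K9me3 peak of 2262 bp covered the Pol I peak and part of the UBF peak. In the latter a UBF peak of 1623 bp enclosed Pol I peaks of 244 and 286 bp, and 1 of 2 H3K9me3 peaks covered both; H3K9me3 covered 43.9% of the domain. On chromosome 2, from 152560275 to 152568860 (8585 bp), the H3K9me3 peak lay inside the UBF peak, while the Pol I peak began 7151 bp from the domain start, apart from both. On chromosome 10, from 80598467 to 80607067 (8600 bp), the Pol I peak of 267 bp overlapped the end of the H3K9me3 peak and the start of the UBF peak, which did not overlap each other. On chromosome 11 from 97558492 to 97567025 (8533 bp), the Pol I peak of 496 bp touched neither the UBF peak nor the 2 H3K9me3 peaks. The widest domain with both UBF and Pol I lacked H3K9me3 and lay on chromosome 19 from 5839437 to 5851303 (11866 bp), where a Pol I peak of 408 bp overlapped the end of a UBF peak of 2193 bp and Pol II covered 98.8%.

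H3K9me3 covered at least 90% of 7 domains (0.823%), against 2.85% of all H3K4me3 peaks and 0.450% of mid-width peaks, a difference from the latter of 0.372 points (-0.0945 to 1.25) that includes 0; these were singled out after their values were seen. Besides the domain on chromosome 9, 4 of them lay between 47597292 and 47715527 on chromosome 6. There, 2 runs of adjacent H3K4me3 peaks, of 7 peaks over 39704 bp and 9 peaks over 36487 bp, were covered by H3K9me3 to 100% and 98.1%, by H4 hyperacetylation to 99.2% and 98.0% and by Pol II to 79.2% and 71.7%. The narrowest of these domains, from 47597292 to 47602784 (5492 bp), held 3 Pol I peaks of 830, 233 and 475 bp and no UBF. The other two lay on chromosome 17. The one from 39979877 to 39986155 (6278 bp) was covered whole by a UBF peak of 6865 bp and to 88.0% by 5 Pol I peaks, which is the highest Pol I count of any domain, and every list had a peak there. The one from 3078846 to 3085591 (6745 bp) had 1 Pol I peak of 328 bp and no UBF. Repeat content and how uniquely reads map were not examined for any of these 7 domains. The second highest Pol I count, 4 peaks, was at a domain on chromosome 11 from 68848698 to 68855505 (6807 bp) that had UBF and no H3K9me3; the 3 domains with most Pol I peaks were also singled out after their values were seen. Domains with 2 or more Pol I peaks numbered 17 (2.00%; 0.186% of all H3K4me3 peaks).

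The domains were unevenly spread over the genome. Another domain lay within 100 kb of 351 of the 851 (41.2%, 37.9 to 44.6), against 27.7% (24.7 to 30.9) for the 851 next widest H3K4me3 peaks, a set of equal number. Within 10 kb the shares were 11.99% and 6.23%. The fullest 1-Mb windows held 16 domains each, on chromosome 10 from 79000001 and on chromosome 19 from 5000001. The next were on chromosome 11 from 117000001 with 9, and on chromosome 10 from 80000001 and chromosome 17 from 35000001 with 8 each. Some of these windows were also full of the 851 next widest H3K4me3 peaks. Chromosome 10 from 80000001 held 11 of them, chromosome 17 from 35000001 held 7 and chromosome 10 from 79000001 held 6. All 57 domains in these 5 windows carried Pol II and both acetylation lists, as did 99.3% of all domains. Of the 16 on chromosome 10 from 79000001, none carried UBF, 1 carried Pol I and 10 carried H3K9me3. Of the 16 on chromosome 19, 1 carried UBF, 3 Pol I and 6 H3K9me3. Over all domains the shares were 26.1% for UBF, 10.8% for Pol I and 45.5% for H3K9me3.

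Chromosomes differed in how many of their H3K4me3 peaks of 2500 bp or more were domains. The share was 17.0% on chromosome 15 (65 of 383, 13.3 to 21.1), 15.6% on chromosomes 17 and 19 and 15.1% on chromosome 10, against 4.85% on chromosome 18 (8 of 165, 2.12 to 9.33) and 2.75% on the X chromosome (3 of 109, 0.571 to 7.83). Chromosome 11 held the most domains, 107. UBF was commonest at the domains of chromosome 13, where 14 of 20 carried it (70.0%, 45.7 to 88.1), those 14 in separate 1-Mb windows, while 23.8% of the mid-width peaks of that chromosome did. Chromosome 13 was picked as the highest of the 20 chromosomes after the values were seen. Pol I was present at 19 of 107 domains on chromosome 11 (17.8%) and 12 of 67 on chromosome 17 (17.9%), against 10.8% of all domains. These chromosomes had the highest Pol I shares of the 20 and were likewise picked after the values were seen. Close behind were chromosome 3 with 17.1% and chromosome 1 with 16.7%.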

How the data were processed

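The files hold called ChIP-seq peaks: the authors deposited other values than counts, namely the start and end position of each peak, with no score, count or coverage, 1 list per antibody. BWA, CASAVA 1.8.2 and Picard are named, with mm9 and hg19 as builds, per the submitters' processing notes. No source used here names the caller of the peaks, the threshold or a filter, and the depth is unknown, so a missing peak says only that none was called. From the deposited positions, width was computed as end minus start, and overlap of at least 1 bp was counted with Python 3.11.15, numpy 2.4.6, pandas 2.3.3 and scipy 1.17.1; the counting was tested on simulated data (4 runs of 3000 peaks, 4 recovered exactly). Shares have exact Clopper-Pearson 95% intervals and differences 95% Newcombe intervals, with no test. Coverage is the length under a list's peaks.

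The members and the rules were chosen with earlier results of these data known. Regions were named by rule: the 10 widest; the 5 widest with UBF, with Pol I, with H3K9me3, without Pol II and in all 7 lists; the 5 with most UBF peaks (ties by width); the 3 on either side of the limit; and the 5 fullest 1-Mb windows. Alternatives changed the overlap rule, window, width limit, comparison group, merging, list length and contigs; leaving out the 10 widest domains or those with H3K9me3 over 90% of their length was added after seeing the data. Gene content, marker genes, base composition and repeat content were not analysed here, nor were the human lists.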

Additional observations from a re-analysis of the deposited data

How the results depend on the processing

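No paired analysis was possible because each antibody has 1 list. No replicate was left out for the same reason, and the caller's own settings were not varied. Of the alternatives run, 113 values stayed within the limits set for them, 40 moved beyond and 1 turned direction; the cause was not tested.

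In the central 2500 bp the share of domains was 23.0% for UBF, 5.41% for Pol I, 97.5% for Pol II and 37.5% for H3K9me3. The differences from mid-width peaks there were 6.89, -0.994, 3.85 and 15.1 points, so that Pol I turned direction. The covered length there was 11.4% for UBF, 65.7% for Pol II, 98.8% for H3K9ac, 91.7% for H4 hyperacetylation and 18.2% for H3K9me3. Against peaks of 4000 bp to under 5000 bp the differences were 4.64 points for UBF, 1.42 for Pol I (-1.29 to 4.20), 1.76 for Pol II and 10.6 for H3K9me3.

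With a limit of 4500 bp the H3K9me3 share was 42.0%. With 6000 bp it was 49.8%, its difference 26.6 points, and the covered length 59.7% for Pol II and 89.4% for H4 hyperacetylation. With H3K4me3 peaks merged across 1000 bp (1416 domains), the shares were 22.95% for UBF, 98.4% for Pol II and 40.8% for H3K9me3, with differences of 7.41 points for Pol II and 18.7 for H3K9me3. With the wider 50% of each other list, the shares were 8.58% for Pol I, 95.8% for Pol II and 38.2% for H3K9me3, and the differences 11.6 points for Pol II, 2.68 for H3K9ac (2.02 to 3.12) and 3.37 for H4 hyperacetylation (2.62 to 3.88), where the intervals no longer include 0.

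With the other peak's centre inside, the shares were 98.9% for H3K9ac and 99.3% for H4 hyperacetylation, and the latter's difference was 0.708 points. With 50% of the other peak inside they were 98.6% and 99.2%, and that difference was 1.35 points (0.426 to 1.92), which no longer includes 0. Another domain lay within 50 kb of 30.6% of domains and within 200 kb of 52.8%.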
